A study of Homo sapiens with 6 samples.

Results

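The nuclear mRNAs for subunits of the oxidative phosphorylation complexes were followed through small ribosomal subunit (40S) footprints of HEK293T, an established line derived from human embryonic kidney. They were taken as the rows of the gene-wise footprint table whose identifiers map to protein-coding symbols of the NDUFA, NDUFB, NDUFC, NDUFS, NDUFV, SDH, UQCR, COX4 to COX8, CYC1, ATP5F, ATP5M and ATP5P families. This gave 43 of 9675 rows, from 88 protein-coding symbols of that pattern in RefSeq. The 43 rows were 17 subunits of complex I, 7 of complex III, 9 of complex IV and 10 of complex V, and 0 of complex II, so the complexes are covered in part. NDUFA4, named as a complex I subunit and now placed with complex IV, was counted there. ATP5F1EP2, a copy that RefSeq lists as a pseudogene, was left out.

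Translation complex profiling reads the RNA protected by ribosomal complexes. All cells were untreated HEK293T, grown for 48 h, fixed with 0.3% formaldehyde for 5 min, lysed and digested with RNase I before 40S and 80S fractions were parted. The library eIF3b-bound 40S 1 held 40S complexes recovered with an antibody against eIF3b, and 40S 1 held the unselected 40S fraction. Only these have counts per gene, with 1 library on each side, so every difference is between 2 libraries, has no replicate check and carries no p-value. The other libraries of the series (40S 2, both 80S libraries and the mRNA library) do not enter the values per gene, so footprints could not be set against mRNA abundance.

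Oxidative phosphorylation passes electrons from NADH and succinate through complexes I to IV to oxygen, and complex V uses the proton gradient they build to make ATP. Most subunits are encoded in the nucleus, translated in the cytosol and imported. The 40S subunit is loaded at the 5′ end of an mRNA with initiation factors and scans the leader (the 5′ UTR) to the start codon. eIF3 is the multi-subunit factor that binds the 40S subunit during these steps, and eIF3b is part of its core. Some mRNAs of mitochondrial proteins have very short leaders with the start codon inside an element known as TISU (translation initiator of short 5′ UTR), which supports initiation close to the cap with little scanning.

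The 2 libraries held 947733 footprints (eIF3b-bound) and 834172 footprints (40S 1). The 43 genes held 34587 of them, or 3.65% of the first, and 14524, or 1.74% of the second. In 40S 1, 28.9% of all footprints fell on its 10 highest genes. Markers of other cell types were at or near 0: of 3 in the table, HBB and CD3E had no count and MYH7 had 2 and 1. Of the HEK293 lineage markers 1 was in the table, NEFM, with 15 eIF3b-bound and 50 unselected footprints.

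For the genes as a whole, the footprints of 5 areas were summed (leader, start codon area, coding sequence, stop codon area and 3′ UTR). Most subunit mRNAs, 32 of the 40 measured, then had a ratio of eIF3b-bound to unselected footprints above the all-gene median. The ratio is given as the log2 of CPM (counts scaled to the library total) in the eIF3b-bound library over 40S 1, for every gene that reached 20 counts when the 2 libraries were added. It was measured for 40 of the 43 genes. Their median log2 ratio was 0.93, against 0.25 over all 4175 genes measured. By this measure 13 of 40 lay at least 2-fold above the all-gene median, against a background of 18.2% of all genes, and 2 lay at least 2-fold below it, against 22.2%. With a 95% counting interval clear of the median in place of a fold, 26 lay above (32.9% of all genes did) and 6 below (33.1%), and 8 held the median in their interval. Such calls depend on depth: 38 of the 40 had at least 200 counts over both libraries, against 1624 of the 4175 genes. A background matched for depth was not computed for them. The counting intervals cover the counting error of separate reads and nothing else. Limits given for counts of 0 take the eIF3b-bound count as exact, so they leave out its counting error. Reads that carry no molecular identifier may be copies of 1 molecule, and the intervals would then be too narrow.

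Those counts depend on the 3′ UTR footprints and on depth. With the 3′ UTR left out of the sums, 0 of 39 subunit genes lay 2-fold above the median, against 13.9% of all genes, and the median of the group exceeded that of all genes by 0.09 in place of 0.68. Measured against the median, 38 of the 39 were lower in that sum, and 10 passed from above the median to below it: ATP5F1A, ATP5PD, CYC1, NDUFA1, NDUFA6, NDUFA7, NDUFB11, NDUFB7, NDUFC1 and NDUFV1. The all-gene median itself was 0.86 in that sum and 0.25 with the 3′ UTR. How many of all genes fell or crossed in the same way was not counted. The whole-gene ratios by complex that follow include the 3′ UTR. Among genes with at least 200 counts over both libraries, 6 of 38 lay 2-fold above, against 11.8%. Scaling moved the all-gene median from 0.25 to between -0.215 and 0.12. It shifts every gene alike and cannot move a gene against that median, so ratios are read against it and not against 0.

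**Figure D1:**
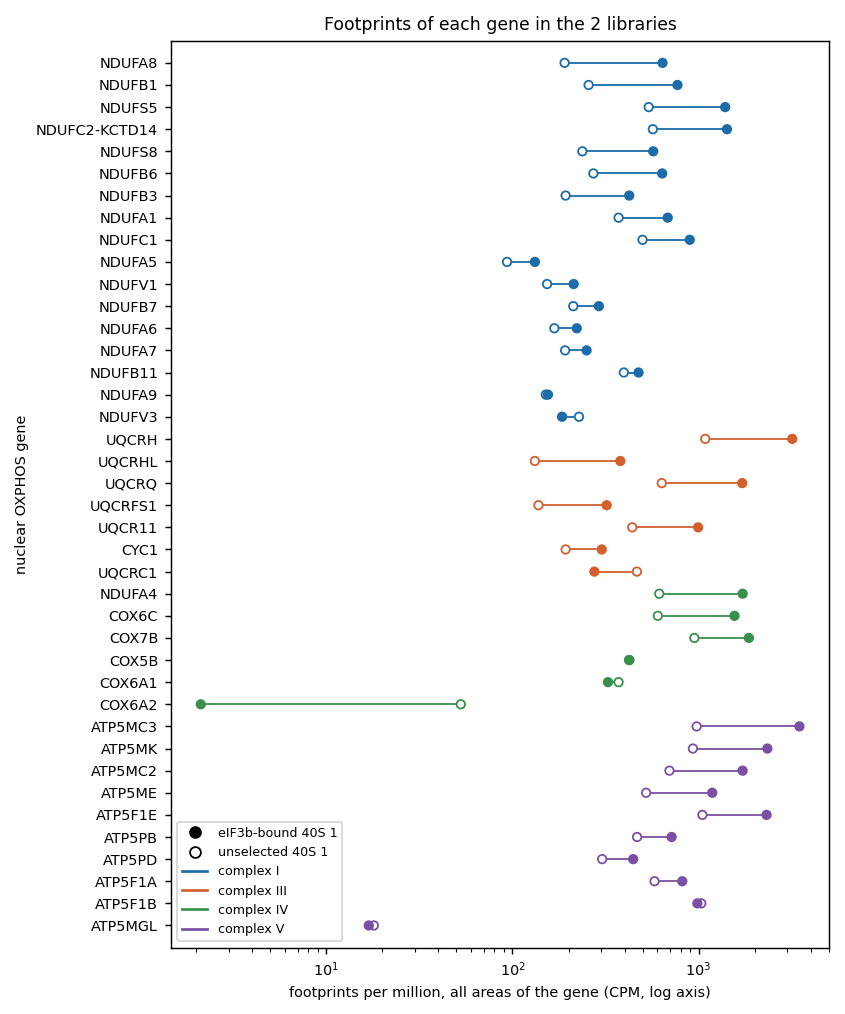
Footprints scaled to the library total (CPM, log axis) over all areas of each of the 40 nuclear subunit genes with at least 20 counts, in the eIF3b-bound library (filled) and unselected 40S 1 (open), ordered by ratio within each complex. The filled point lies to the right for most genes; COX6A2, UQCRC1 and NDUFV3 are among the exceptions.

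In complex I, which oxidises NADH, the 17 genes had a median log2 ratio of 0.84, and 5 lay 2-fold above the all-gene median (18.2% of all genes did). NDUFA8, an accessory subunit, had 607 eIF3b-bound footprints (640 CPM) and 159 unselected ones (191 CPM), a ratio of 1.75 (interval 1.49 to 2.01). NDUFB1, another accessory subunit, had 730 and 214 footprints and a ratio of 1.58. These were the highest of the complex. The subunits with most footprints, NDUFC2-KCTD14, NDUFS5, NDUFC1 and NDUFA1, had ratios of 1.32, 1.37, 0.84 and 0.88. NDUFC2-KCTD14 is a read-through gene that shares exons with NDUFC2, so its footprints cannot be given to either alone. At the other end stood NDUFV3, an accessory subunit of the NADH-binding module, with 175 and 190 footprints and a ratio of -0.30 (interval -0.61 to 0.00). NDUFA9, an accessory subunit near the quinone site, had 147 and 126 footprints and a ratio of 0.04. The core subunits NDUFS8, which carries iron-sulfur clusters, and NDUFV1, which binds FMN, had ratios of 1.26 and 0.47.

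Complex III passes electrons from ubiquinol to cytochrome c. Its 7 genes had a median ratio of 1.21, and 6 of 7 lay above the all-gene median. UQCRH, the hinge protein, had 3022 eIF3b-bound and 906 unselected footprints (3189 and 1086 CPM), a ratio of 1.55 (interval 1.45 to 1.66). UQCRQ, a small subunit, had 1627 and 529 footprints and a ratio of 1.44. UQCR11 (943 and 367 footprints) and UQCRFS1, the Rieske iron-sulfur protein (304 and 115), had ratios of 1.18 and 1.21. CYC1, cytochrome c1, had 286 and 161 footprints and a ratio of 0.64. UQCRC1, a core protein of the complex (ENSG00000010256, chromosome 3, 48599002 to 48609646 in GRCh38.p14), went the other way with 261 eIF3b-bound and 389 unselected footprints (275 and 466 CPM). Its ratio was -0.76 (interval -0.99 to -0.53), 0.59-fold.

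Complex IV reduces oxygen and has tissue isoforms. Of its 9 genes 6 were measured, and their ratios spanned the widest range of the complexes, from -4.34 to 1.49, with a median of 0.49. NDUFA4 had 1636 and 513 footprints and a ratio of 1.49 (interval 1.34 to 1.63). COX6C, with 1479 and 504, and COX7B, with 1768 and 792, had ratios of 1.37 and 0.97. COX5B, with 403 and 353 footprints, stood at 0.01, and COX6A1, the widely expressed isoform, with 309 and 310 at -0.19. The tissue isoforms had little or nothing. COX6A2, the heart and muscle isoform, had 2 eIF3b-bound and 44 unselected footprints, all of them in the 3′ UTR, which gave the ratio of -4.34 (interval -7.73 to -2.70). COX4I2 and COX8C had no footprint in either library, and COX6B2, the testis isoform, had 8 and 0, all in the coding sequence. COX6A2 was therefore seen here only as 3′ UTR footprints.

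Complex V is the ATP synthase. Its 10 genes had a median ratio of 0.88. ATP5MC3 (ENSG00000154518, chromosome 2, 175176258 to 175181710 in GRCh38.p14), one of the genes for the subunit c of the rotor ring, had 3305 eIF3b-bound and 815 unselected footprints (3487 and 977 CPM). Its ratio of 1.83 (interval 1.73 to 1.95), 3.57-fold, was the highest of the 40. Its paralog ATP5MC2, which encodes the same mature subunit behind another import sequence, had 1635 and 582 footprints and a ratio of 1.31 (interval 1.17 to 1.44). The counting intervals of the paralogs did not overlap, but they cover neither spread between replicates nor reads that match both genes. ATP5MK and ATP5F1E, small subunits with 2221 and 778 and with 2200 and 875 footprints, had ratios of 1.33 and 1.15. The alpha and beta subunits of the catalytic head were lower. ATP5F1A (alpha) had 775 and 484 footprints and a ratio of 0.49, and ATP5F1B (beta), with 934 and 863, stood at -0.07 (interval -0.20 to 0.07). The stalk subunits ATP5PB and ATP5PD had 0.62 and 0.55. ATP5MGL, a copy of ATP5MG, had 16 and 15 footprints, too few to place.

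UQCRH and its intronless copy UQCRHL had like whole-gene ratios (1.55 and 1.52) but unlike areas. UQCRH had 2319 eIF3b-bound and 451 unselected footprints in the leader, and UQCRHL 16 and 2. At the start codon UQCRH had 559 and 194 and UQCRHL 234 and 45. How reads matching both genes were counted is not given in the sources used here, so their values cannot be told apart with certainty. The same holds for ATP5F1E and ATP5F1EP2, the latter with 275 and 91 footprints. Without the 9 subunit genes that have such a copy or paralog, 8 of 31 (25.8%) lay 2-fold above the all-gene median, against 18.2% of all genes.

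By area, the median ratio of the subunit mRNAs lay within 0.19 of that of all genes in the leader and at the start codon, and 1.95 above it in the 3′ UTR. In the leader the ratio was measured for 30 of the 43. Their median was 2.09, against 2.27 for 2407 genes, and 22 of 30 lay below the all-gene median. None of the 30 (0) lay 2-fold above the all-gene median, where 14.7% of all genes did, and 3 lay 2-fold below (12.8% of all genes). With a counting interval clear of the median, 9 lay below, where 16.8% of all genes did, and 2 above (15.4%). These calls also depend on depth: all 30 had at least 200 counts over all areas, against 1323 of the 2407 genes. ATP5MC3, with 1942 eIF3b-bound and 218 unselected leader footprints, had a leader ratio of 2.97 (interval 2.77 to 3.18), and NDUFB1, with 263 and 26, had 3.13 (interval 2.57 to 3.8). The 3 low ones were NDUFV1 at 0.65 (68 and 38), COX5B at 1.06 (22 and 9) and NDUFB11 at 1.24 (52 and 19).

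At the start codon, 38 subunit genes were measured, with a median ratio of 1.2 against 1.22 for 1333 genes and a range of 0.23 to 2.18. In this area 0 lay 2-fold above the median (background 14.6%) and 0 lay 2-fold below (background 12.5%). Of the 38, 19 lay above the median and 19 below. The highest was UQCRHL, the lowest NDUFA7, with 76 and 57 footprints. NDUFA8 stood at 2.02, with 122 and 26.

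In the coding sequence the ratios were mostly below 0, with a median of -0.42 over 39 subunit genes against -0.64 for 2734 genes. Here 8 lay 2-fold above the all-gene median, against 22.4% of all genes, and 2 below, against 21.4%. The 8 were UQCR11, ATP5MC2, NDUFA8, ATP5F1E, NDUFA5, NDUFA7, ATP5ME and UQCRQ, from 0.96 for UQCR11 (177 and 80 footprints) to 0.38 for UQCRQ (236 and 159). The 2 below were COX6C, with 21 and 72 coding footprints and a ratio of -1.94, and ATP5F1A, with 90 and 251 and a ratio of -1.66. The share above the median by this much was close to the background.

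The 3′ UTR held the widest gap from other genes. Over 37 subunit genes the median ratio was 0.42, against -1.53 for 2741 genes. There 28 of 37 lay 2-fold above the all-gene median, against a background of 28.9%, and 1 (COX6A2) lay 2-fold below, against 23.9%. UQCRFS1 was highest at 2.84, on 36 and 4 footprints, followed by NDUFA8 at 2.29 (69 and 12) and ATP5ME, a small subunit of the synthase membrane part, at 2.21 (281 and 53). Genes with more 3′ UTR footprints varied. ATP5F1B, with the most (336 and 251), had a ratio of 0.24, ATP5MC3 (446 and 119) had 1.72 and ATP5MC2 (327 and 106) had 1.44. UQCRC1 (111 and 265) had -1.44, near the all-gene median. The count was 27 of 36 against 29.1% among genes with at least 200 counts.

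**Figure D2:**
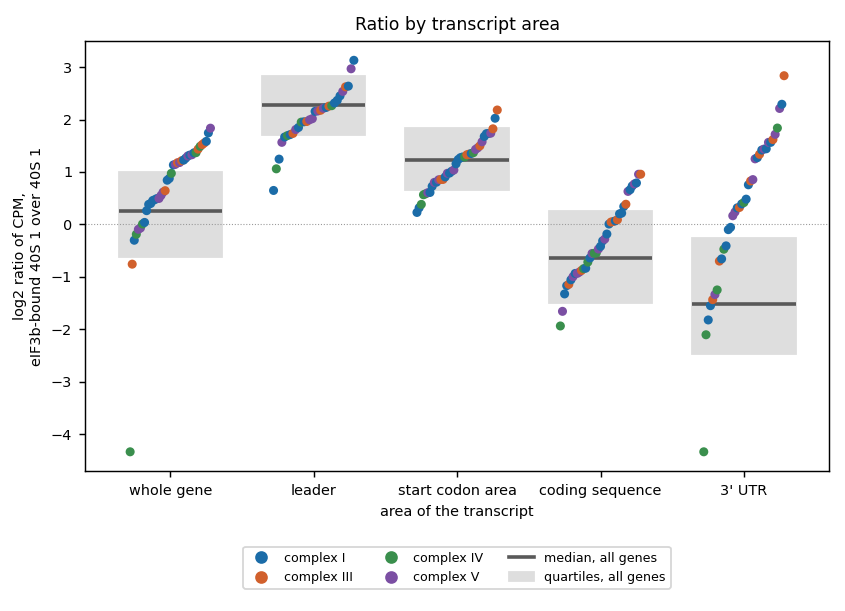
The log2 ratio of CPM, eIF3b-bound 40S 1 over 40S 1, for each nuclear subunit gene (points, by complex) in the whole gene and 4 areas, with the median (line) and quartiles (grey) of all genes measured. Above the line lie 8 of 30 points in the leader, 19 of 38 at the start codon and 33 of 37 in the 3′ UTR.

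The split of footprints over the areas within each library, summed over the subunit mRNAs, differed from that of all genes. In the eIF3b-bound library 43.8% of the footprints on subunit mRNAs fell in leaders and 30.3% at start codons, against 50.7% and 18.0% over all genes. In 40S 1 the leader share was 20.2% and the start codon share 29.2%, against 11.0% and 8.52% over all genes. Medians over genes with at least 20 footprints in each library (38 and 3117) gave other sizes. Leader shares were then 30.3% against 46.9% (eIF3b-bound) and 13.7% against 9.52% (40S 1). Start codon shares were 33.4% against 8.51% and 29.1% against 4.29%. Start codon footprints thus took a larger share in these mRNAs than over all genes in both libraries. Lengths of the areas were not available, so no share is scaled to length. The part of length in these differences was not tested. The summed 3′ UTR share in 40S 1 was 15.5% (interval 14.9% to 16.1%), against 47.3% over all genes. In the eIF3b-bound library it was 11.3% against 13.6%. As medians over genes it was 12.9% against 39.4% in 40S 1 and 11.5% against 11.7% in the eIF3b-bound library. The unselected library is thus where the 3′ UTR shares differed most. The summed coding share was 13.8% among eIF3b-bound footprints and 31.3% among unselected ones (17.2% and 31.8% over all genes). The summed stop codon share was 0.723% and 3.72% (0.567% and 1.34%).

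Gene by gene, 38 subunit mRNAs had at least 20 footprints in each library. The leader share was higher in the eIF3b-bound library in 36 of 38, and the other 2 (NDUFA5 and NDUFA9) had no leader footprint in either. Among 3117 genes it was higher in 84.8%. The size of the shift was smaller, with a median of 13.6 percentage points in the subunit mRNAs against 28.9 over all genes. The coding share was lower in the eIF3b-bound library in 35 of 38, against 73.0% of all genes. The 3 exceptions were NDUFA5, NDUFA7 and NDUFA9, and their intervals overlapped between the libraries. For NDUFA9 the coding share was 68.7% (interval 60.5% to 76.1%) and 55.6% (46.4% to 64.4%). The 3′ UTR share was higher in the eIF3b-bound library in 16 of 38, against 11.9% of all genes. In 40S 1, 29 of 38 had under 20% of their footprints in the 3′ UTR, as did 27.7% of all genes.

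**Figure D3:**
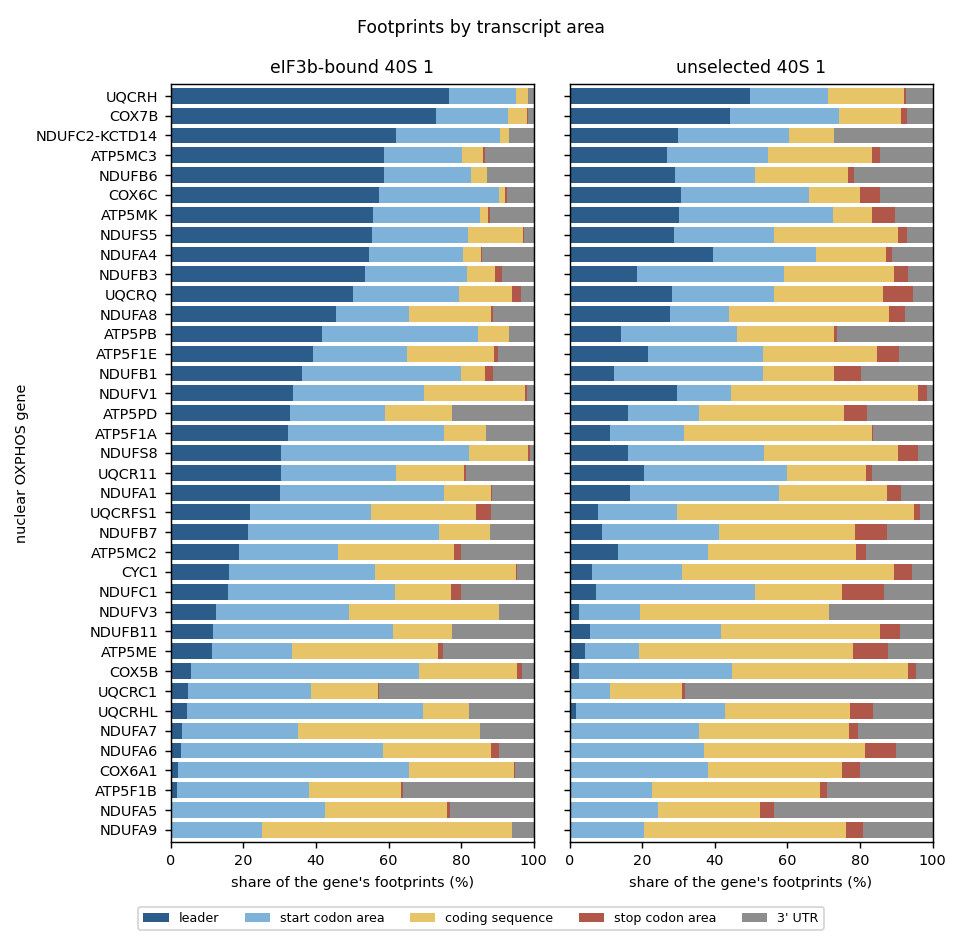
Share (%) of each gene's footprints in the 5 areas for the 38 nuclear subunit mRNAs with at least 20 footprints in each library, eIF3b-bound on the left and unselected on the right, ordered by eIF3b-bound leader share. UQCRH and COX7B are at the top with 76.7% and 73.0% leader footprints, and NDUFA5 and NDUFA9 are at the bottom with none.

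Leader use ran over a wide range. UQCRH had 76.7% of its eIF3b-bound footprints in the leader and 49.8% of its unselected ones, and COX7B 73.0% and 44.3%. NDUFC2-KCTD14 (61.9% and 29.96%), ATP5MC3 (58.8% and 26.7%) and NDUFB6 (58.6% and 29.1%) came next. In 40S 1, 6 of 38 had no leader footprint, as did 19.9% of all genes. ATP5F1B had 16 eIF3b-bound leader footprints and 0 unselected ones. With 3 counts as the limit that a count of 0 allows, and the 16 taken as exact, it was at least 4.69-fold higher in CPM. UQCRC1 had 12 and 0, at least 3.52-fold higher on the same terms. NDUFA7 had 7 and 0, NDUFA6 had 6 and 0, and NDUFA5 and NDUFA9 had 0 and 0. For the 3′ UTR the highest eIF3b-bound shares were in UQCRC1 (42.5%, against 68.1% in 40S 1) and ATP5F1B (35.97%, against 29.1%). ATP5ME (25.02%), NDUFA5 (23.2%) and NDUFB11 (22.6%) followed.

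The whole-gene ratio went with the leader share. Genes with under 5% of their 40S 1 footprints in the leader had a median ratio of 0.04 (11 subunit genes), those from 5% to 20% had 0.84 (13) and those above had 1.35 (14). Over all genes the medians were -0.38, 0.12 and 0.97. Across the 38 subunit genes Pearson's r was 0.66 and Spearman's rho 0.68, and over 3117 genes 0.52 and 0.55. This is a description across genes of 2 libraries, and the 40S 1 counts enter both axes. Leader footprints are also part of the whole-gene ratio. Over all genes the median ratio was 2.27 in leaders, -0.64 in coding sequences and -1.53 in 3′ UTRs, so some rise with leader share is arithmetic. UQCRHL, with 1.82% leader footprints in 40S 1 and a ratio of 1.52, and NDUFV1, with 29.7% and 0.47, stood off the trend.

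**Figure D4:**
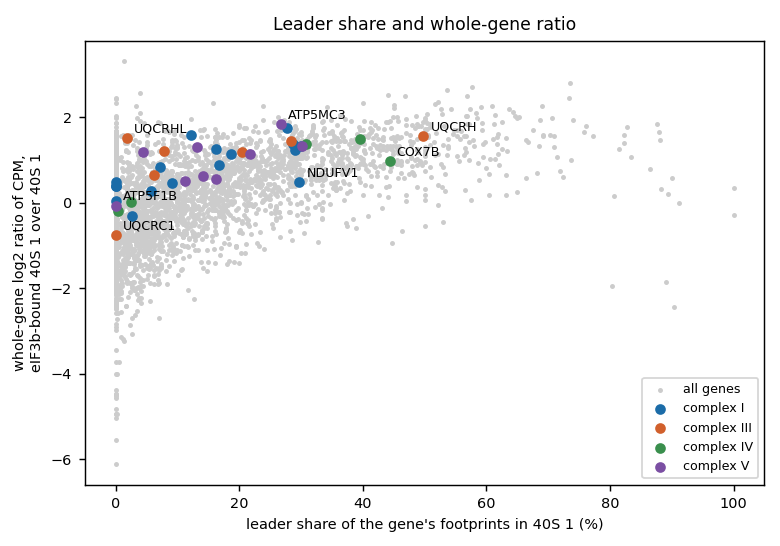
Whole-gene log2 ratio of CPM, eIF3b-bound 40S 1 over 40S 1, against the leader share (%) of the gene's footprints in 40S 1, for all genes with at least 20 footprints in each library (grey) and the 38 nuclear subunit genes (coloured by complex). UQCRC1 lies at the lower left at -0.76, and UQCRH at the right at 1.55.

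The subunit mRNAs with few leader footprints were looked at for the start of their transcripts. RefSeq promoter windows (GRCh38.p14, 250 bases before to 50 after the transcript start) were matched for 35 of the 43 genes, and 14 of them hold an ATG in the first 50 transcript bases. Of those measured for shares, 13 subunit genes hold one and 19 do not. Over all genes so measured, 844 hold one and 1719 do not. The 9 letters AAGATGGCG, the start of the TISU element, were chosen after the sequences had been seen. They occur in the sense direction in those 50 bases in 4 genes, 11.4% of 35, against 1.76% of 15843 protein-coding promoters. The longer TISU core occurs there in 2 genes (5.71%, against 0.966%). Neither background is limited to genes with footprints. Among the genes with an ATG that were measured for shares, the 9 letters occur in 4 of 13 subunit genes and in 85 of all 844. The 4 sites are shown first, since all 4 mRNAs had 0 leader footprints in 40S 1, and COX6A1, which lacks the motif, for comparison. Each is 30 bases, 12 before the ATG, in transcript direction, with the ATG in capitals; the tables do not say which ATG is the annotated start codon.
NDUFA9 (chr12:4649115-4649144, plus strand): ttgtgggaaaagATGgcggctgccgcacaa
UQCRC1 (chr3:48609603-48609632, minus strand): tgcagctggaagATGgcggcgtccgtggtc
NDUFA6 (chr22:42090727-42090756, minus strand): tgctttggcaagATGgcggggagcggcgtc
NDUFA7 (chr19:8321341-8321370, minus strand): cgcggacggaagATGgcgtccgccacccgt
COX6A1 (chr12:120438115-120438144, plus strand): tccagatcaaaaATGgcggtagttggtgtg

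In these 4 genes the ATG of the motif begins at base 14 (NDUFA9), 27 (UQCRC1), 29 (NDUFA6) and 18 (NDUFA7) of the transcript, and in COX6A1 at base 15. The leader shares of the 4 in the eIF3b-bound library had a median of 2.91%, from 0% to 4.60%, and in 40S 1 all were at 0. COX6A1 had 6 eIF3b-bound and 1 unselected leader footprint, or 1.94% and 0.323%. A leader without footprints was not particular to the motif. NDUFA5, with an ATG at base 12 and no motif, had 0 leader footprints in both libraries. It is not shown because fewer than 12 bases precede its ATG. ATP5F1B, also at 0 in 40S 1, had no promoter window. Among all genes with the motif in the first 50 bases (85) the median leader shares were 4.08% and 0%. Leader lengths as the authors counted them are not used here, so shares are not corrected for length and the part of length in them was not tested.

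Leader shares were also compared by whether any ATG lies in those bases. The 13 subunit genes with an ATG in the first 50 bases had a median leader share of 5.46% eIF3b-bound and 2.55% unselected, and the 19 without had 39.2% and 18.6%. These 13 include the 4 with the motif; the other 9, set apart after the values were seen, had medians of 11.5% and 4.36%. The highest eIF3b-bound share of the 13 was that of NDUFA8 (45.5%, and 27.7% unselected), whose ATG begins at base 1 of the transcript, and the highest unselected share that of NDUFV1 (29.7%). Over all genes the medians were 15.4% and 2.50% with such an ATG (844) and 56.2% and 13.6% without (1719). The whole-gene ratio had a median of 0.38 with an ATG there and 1.18 without among the subunit genes, and 0.00 and 0.35 over all genes.

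**Figure D5:**
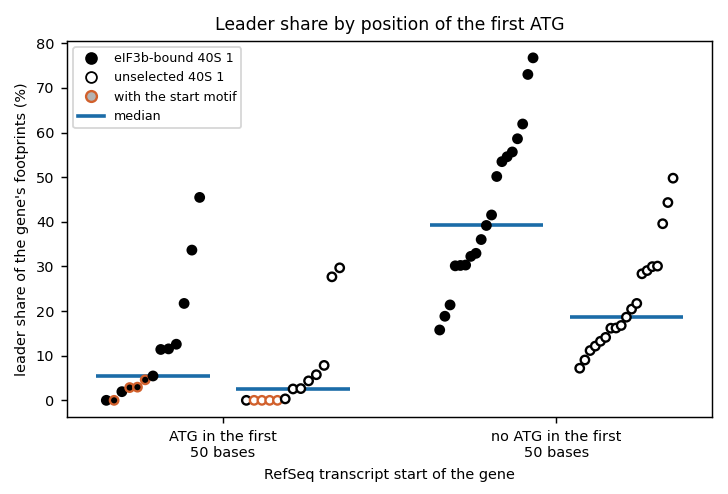
Leader share (%) of footprints in the eIF3b-bound library (filled) and unselected 40S 1 (open) for 13 nuclear subunit genes with an ATG in the first 50 transcript bases and 19 without, with medians as lines; orange outlines mark the 4 genes with AAGATGGCG. The medians are 5.46% and 2.55% on the left and 39.2% and 18.6% on the right.

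Genes that work with the complexes were measured by the same ratio. As given above, 18.2% of all genes lay 2-fold above the all-gene median and 22.2% below. Of 26 assembly factors 9 lay 2-fold above and 2 below, with a median of 0.81. COX16, needed to build complex IV, had 956 and 250 footprints and a ratio of 1.75, COA4 582 and 194 (1.40), and NDUFAF3 461 and 214 (0.92). Among 22 genes of mitochondrial protein import the median was 0.57, with 4 above, a share equal to that of all genes, and 0 below; TOMM6 had 1126 and 677 footprints (0.55), HSPA9 633 and 779 (-0.48) and TIMM13 922 and 307 (1.40). For 7 genes of the TCA cycle and pyruvate dehydrogenase the median was -0.08, with 0 above and 1 below; DLAT stood at -0.08, DLD at 0.12 and SUCLG1 at 0.56. Of 4 electron carrier and coenzyme Q genes, CYCS (cytochrome c) had 1034 and 364 footprints and 1.32, ETFB 0.68 and COQ7 -0.78. NDUFAB1, the acyl carrier subunit of complex I outside the chosen families, had 360 and 252 footprints and 0.33.

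The mitochondrially encoded subunits of the same complexes, translated inside the organelle, stood far below the all-gene median. All 7 in the table lay 2-fold below the all-gene median, with a median ratio of -4.53. MT-ATP6 had 640 eIF3b-bound and 17257 unselected footprints (-4.94), MT-CO2 834 and 16439 (-4.48), and MT-CO1 712 and 13880 (-4.47). Of the 40 nuclear subunit genes measured, only COX6A2 came near these values, on 2 and 44 footprints.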

How the data were processed

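The deposited table gives, per the file headers, whole-number counts of footprints per gene in 5 areas for eIF3b-bound 40S 1 and 40S 1. Per the labels, both were paired-end libraries of which only read 1 was used. The submitters' processing notes name build GRCh38 and the tools TopHat2 2.1.0, Bowtie2 2.2.6, Bowtie 1.2.2 and CASAVA 1.8. What each did, whether strand was used, and how multiply matching reads were counted: not given in the sources used here. Of the identifiers, 8322 matched a symbol and 1353 did not.

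Ratios are on the log2 CPM scale, a prior count of 0.5 having been added to each library, for genes or areas with at least 20 counts over both libraries; intervals are exact Clopper-Pearson at 95% (scipy 1.17.1, Python 3.11.15). Alternatives were other minimums, a prior count of 2, totals without the 10 highest or the mitochondrially encoded genes, TMM scaling (edgeR 4.0.16), sums without the 3′ UTR, and leaving out copies. The ratio and its counting interval were tried on simulated whole-gene totals drawn as Poisson counts, which hold no copied reads. The other steps were not tried on simulated data. Members and lists were chosen with earlier results of these data known. Named genes are the 4 with most counts per complex, the 5 highest and 5 lowest ratios among those with at least 50 counts, paralogs and tissue isoforms, the 5 highest eIF3b-bound leader and 3′ UTR shares, and 3 per related list; others were chosen after their values were seen. Sequences are from RefSeq GRCh38.p14; 8 genes had no window.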

Additional observations from a re-analysis of the deposited data

How the results depend on the processing

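No paired analysis was possible because the gene table holds 1 library of each group; for the same reason no replicate could be left out, and biological spread is unknown. In the whole gene, the median of the subunit genes minus that of all genes (0.68) was 0.78 at a minimum of 50 counts, 0.092 without the 3′ UTR, 0.59 without copies and 0.57 at 200 counts over all areas, a setting chosen after seeing the data. Genes 2-fold above (13) numbered 0 without the 3′ UTR, 8 without copies and 6 at 200 counts; genes 2-fold below (2) numbered 1 at a minimum of 50, with a prior count of 2, without the 3′ UTR, without copies and at 200 counts. In the leader the difference (-0.19) was -0.091 at a minimum of 10, -0.11 with a prior count of 2 and -0.26 without copies, and 2 genes were 2-fold above at a minimum of 10. At the start codon the difference (-0.02) changed sign to 0.017 with a prior count of 2 and was -0.18 without copies, and 1 gene was 2-fold below at minimums of 50 and 10. In the coding sequence it was 0.12 at a minimum of 50 in place of 0.22, and 1 gene was 2-fold below at 200 counts. In the 3′ UTR the difference (1.95) was 2.29 at a minimum of 50, 1.87 at a minimum of 10 and 1.86 with a prior count of 2, and 0 genes were 2-fold below at a minimum of 50, without copies and at 200 counts. The pooled leader share of 43.8% was 30.3% as a median over genes, 42.3% without the gene with the most counts and 49.9% over leader, start codon and coding sequence only; in 40S 1, 20.2% was 13.7% as a median and 25.01% over those areas. The cause of these shifts was not tested. The other 96 recomputed values for the group kept their direction and stayed within 1.5 times a count or within the counting interval. Of the values for single genes, 61 moved beyond their counting interval, 36 of them without the 3′ UTR and 25 at 200 counts, and 1397 did not. Scaling the totals shifts every gene alike, so values against the all-gene median could not move and are no check. The settings are totals without the 10 highest genes, totals without mitochondrially encoded genes, and TMM. They are counted in the 96 and the 1397, with 184 single-gene values each. Without the 3′ UTR, NDUFC1 went from 0.59 above the median to -0.14 and NDUFB11 from 0.012 to -0.83. Depth limits the stop codon area most, where 11 subunit genes reached the minimum.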

Other observations

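The consensus motif of NRF1, a transcription factor known for binding nuclear genes of mitochondrial proteins, was searched on both strands of the same 300-base windows. It occurs in 7 of the 35 subunit genes with a window (20.0%), against 8.58% of 15843 protein-coding promoters, which are not limited to genes with footprints. The genes are ATP5ME, COX8C, NDUFA8, NDUFA9, UQCR11, UQCRC1 and UQCRFS1. They include COX8C, which had no footprint in either library, and UQCRC1 and NDUFA8, which stand near opposite ends of the whole-gene ratio (-0.76 and 1.75). The letters are a match only, and binding was not measured.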
